A study of Homo sapiens with 4 samples.

Results

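The genes described here encode the subunits of the oxidative phosphorylation complexes that are made from nuclear DNA. They were chosen by symbol: protein-coding nuclear genes starting with NDUFA, NDUFB, NDUFC, NDUFS, NDUFV, UQCR, COX4 to COX8, ATP5F, ATP5M, or ATP5P, together with SDHA, SDHB, SDHC, SDHD, CYC1, and CYCS, leaving out the NDUFAF assembly factors and pseudogenes. All 91 such genes were found among the 58243 genes listed. RNA-seq was performed in 293T cells, a line derived from human embryonic kidney, after transfection with a negative control RNA or with a mimic of miR-1, miR-122, or miR-124. Mimics are short duplexes made to act as the mature miRNA once inside a cell, and every culture, the control included, received a small RNA. The labels give 48 h of transfection, whereas the methods of the study give an earlier time. There was 1 library per condition, so that no difference between conditions has a replicate check, and all 3 mimics were compared with the same control library.

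Oxidative phosphorylation takes place in the inner mitochondrial membrane. Complexes I and II pass electrons from NADH and succinate to ubiquinone, complex III passes them on to cytochrome c, and complex IV hands them to oxygen. Complexes I, III, and IV pump protons while doing so, and complex V, the ATP synthase, uses the return of the protons to make ATP. A few hydrophobic subunits are encoded by mitochondrial DNA, and all others by the nuclear genes described here, whose mRNAs are translated in the cytosol. miR-1 is a miRNA of muscle, miR-122 of liver, and miR-124 of the nervous system.

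A miRNA recognizes sites in 3′ UTRs mainly through its seed, bases 2 to 8. The mature sequences of miR-1-3p (chr20:62554351-62554372, plus strand) and miR-122-5p (chr18:58451088-58451109, plus strand) are shown because they define the sites that were searched in the genes. They were taken from RefSeq (GRCh38.p14), and the capitals mark the seed.
miR-1-3p: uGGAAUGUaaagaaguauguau
miR-122-5p: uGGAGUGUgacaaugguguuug
The mature sequence of miR-124 was not used here.

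Each gene had a single FPKM value per library, and the reads behind it were recovered (How the data were processed). The values had been divided by 6624306 reads in the control, 9452232 in miR-1, 5887055 in miR-122, and 6465436 in the miR-124 library. Cell identity was looked at through marker genes. The epithelial keratins KRT8 and KRT18 and vimentin (VIM) had at least 2603 reads in each library, whereas PAX2 and LHX1, kidney transcription factors, had 12 to 30 and 45 to 64 reads, respectively. The hepatocyte markers ALB, APOA1, AFP, and SERPINA1 had 0 to 2 reads, and the blood markers PTPRC, CD3E, HBB, and LYZ had 0 to 4. Of the fibroblast markers, COL1A1 and COL3A1 had 345 to 517 and 98 to 134 reads and DCN had 0 to 1, and of the neuron markers, SYP and RBFOX3 had 27 to 37 and 31 to 49 reads and SNAP25 had 3 to 8. The muscle markers MYH7, MYH6, TNNT2, CKM, and ACTA1 had 0 to 14 reads.

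Of the 91 genes, 77 had at least 200 reads over the 4 libraries and were above the study's threshold of 0.004 in all of them. These are referred to as the tested genes, although no test of a condition is possible with 1 library each. They had between 319 and 21105 reads, with a median of 3341. The same filter left 12638 genes of the transcriptome. Ratios are FPKM with a mimic over FPKM with the control, without a pseudocount. Each is given with a 95% interval, derived by the Clopper-Pearson method from the portion of the reads of both libraries that came from the mimic library, which covers counting error only and compares libraries, not conditions.

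With miR-1, the oxidative phosphorylation genes were higher than with the control. The ratio was above 1 for 71 of 77 genes, against 5432 of all 12638 tested genes. Its median in the set was 1.16, which is 0.22 on the log2 scale, whereas the median over all 12638 genes was 0.965 (-0.05). Values at least 25% above the control were found for 23 genes, and the interval was wholly above 1 for 21 of these, the exceptions being NDUFA9 and ATP5PO. Of all tested genes, 7.45% were that much higher with miR-1. None of the 77 was at least 20% lower, the corresponding change downward, against 18.4% of all tested genes. No gene of the set passed 1.5-fold in either direction, compared with 0.95% of all tested genes for higher and 4.9% for lower values. For 58 of the 77 genes, the miR-1 library had the highest value of the 4 libraries. The share of all tested genes for which this held was not counted. The reads of the oxidative phosphorylation genes, summed over the whole set, made up 1.07% of the control library (95% exact binomial interval 1.067 to 1.082), 1.24% of the miR-1 library (1.237 to 1.251), and 1.10% of both the miR-122 and the miR-124 library.

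With miR-122 and miR-124, the set stayed close to the control. The median ratio was 1.03 with miR-122 (0.05 on the log2 scale, -0.02 over all genes) and 1.03 with miR-124 (0.05, -0.05 over all genes). Of the set, 43 genes were above 1 with miR-122 and 44 with miR-124, against 5863 and 5510 of all 12638 tested genes. With miR-122, 4 genes were at least 25% higher, while 7.91% of all tested genes were, and 1 was at least 20% lower, while 12.3% of all tested genes were. With miR-124, 4 genes were at least 25% higher and none was at least 20% lower, against 10.3% and 16.3% of all tested genes. Past 1.5-fold, the only gene was NDUFA11 with miR-124. The background at that fold was 1.33% higher and 2.33% lower with miR-122, and 1.88% higher and 3.07% lower with miR-124. When the mean of the other 2 mimics was taken as the reference instead of the control, the median log2 ratio of the set was 0.20 in the miR-1 library, -0.10 in that of miR-122, and -0.11 in that of miR-124. The reference for miR-122 and for miR-124 then includes the miR-1 library, in which the set was higher.

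**Figure D1:**
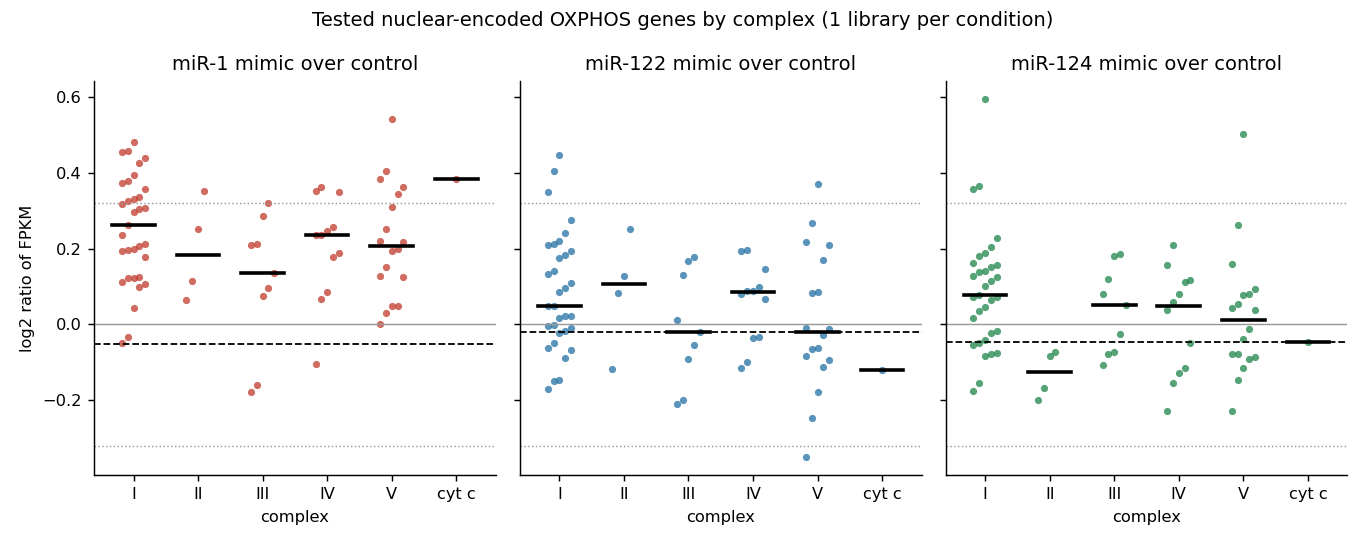
The log2 ratio of FPKM to the control (vertical axis) is plotted for the 77 tested genes by complex, with a panel for each mimic. Points are genes, short black bars are medians of a complex, the dashed line is the median of all 12638 tested genes, and dotted lines mark values 25% higher and 20% lower. With miR-1, every complex had its median above 0, while with miR-124 all 4 complex II genes lay below 0.

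Complex I takes in the electrons of NADH. Of its 38 genes, 33 were tested. Their median log2 ratio with miR-1 was 0.26, with 31 above a ratio of 1 and 12 at least 25% higher, and it was 0.05 with miR-122 and 0.08 with miR-124. The core subunits carry the flavin and the iron-sulfur clusters, and the 6 of 7 that were tested had a median of 0.16 with miR-1. For the 27 tested accessory subunits, which surround the core, it was 0.30.

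Among the accessory subunits, NDUFV3 had FPKM values (in the order control, muscle, liver, and neural miRNA, as in all series of values below) of 1.08, 1.51, 1.252, and 1.11, and the miR-1 ratio was 1.40 (1.19 to 1.64). NDUFB5 (ENSG00000136521, chr3:179604690-179627647) had values of 3.12, 4.29, 3.78, and 3.56, and all 3 mimic libraries were above the control, with a ratio of 1.37 (1.23 to 1.54) for miR-1. For NDUFA6 the values were 17.0, 23.0, 19.8, and 18.7, again with the miR-1 library highest at a ratio of 1.36 (1.23 to 1.497). NDUFB6 reached 1.35 (1.17 to 1.55) and NDUFB2 reached 1.31 (1.21 to 1.43) with miR-1. NDUFB2 was lower than the control with miR-122, where its ratio was 0.888 (0.801 to 0.985). NDUFA10 and NDUFB10 were the only ones of the 33 tested complex I genes with a miR-1 ratio below 1, at 0.967 (0.876 to 1.07) and 0.978 (0.912 to 1.05), both intervals including 1.

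Other complex I genes, such as NDUFS8, NDUFA11, and NDUFC2, were highest with miR-124. NDUFS8, a core iron-sulfur subunit, had FPKM values of 23.3, 26.7, 23.2, and 30.03, and the ratio with miR-124 was 1.29 (1.18 to 1.40). NDUFA11 had values of 0.723, 0.781, 0.987, and 1.09, but only 61, 94, 74, and 90 reads. Its ratio was 1.51 (1.08 to 2.13) with miR-124 and 1.37 (0.959 to 1.95) with miR-122, so that the miR-122 value cannot be told from 1 at this depth. NDUFV1, the subunit that binds NADH, was between 1.09 and 1.18 times the control in all 3 mimic libraries, and it was highest with miR-122. NDUFA3 was at 1.30 in the miR-1 library, 1.27 in that of miR-122, and 1.17 in that of miR-124, and NDUFC2 was at 1.28 (0.929 to 1.77) with miR-124. The lowest complex I gene with miR-124 was NDUFA5 at 0.885 (0.762 to 1.03).

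Complex II, succinate dehydrogenase, is the only complex without a mitochondrially encoded subunit. Its 4 genes were all above a ratio of 1 with miR-1, where the median log2 ratio was 0.18, and all below 1 with miR-124, where it was -0.13. The flavoprotein SDHA had FPKM values of 8.51, 8.90, 9.31, and 8.10, and the iron-sulfur subunit SDHB had 2.67, 3.18, 2.83, and 2.52. The membrane anchors SDHC and SDHD had 2.48, 2.68, 2.28, and 2.21 and 0.845, 1.08, 1.01, and 0.735, respectively. Of the 4 miR-124 intervals only that of SDHC excluded 1, with a ratio of 0.891 (0.812 to 0.976), and SDHD was at 0.870 (0.700 to 1.08). With miR-1, the intervals of SDHB and SDHD were above 1, with ratios of 1.19 (1.08 to 1.32) and 1.28 (1.06 to 1.54). With miR-122, only that of SDHA was, at 1.09 (1.03 to 1.16). Summed, the 4 genes took 0.0602% of the control reads (95% exact binomial interval 0.0583 to 0.0621), 0.0655% of those with miR-1 (0.0639 to 0.0671), 0.0631% with miR-122 (0.0611 to 0.0652), and 0.0560% with miR-124 (0.0542 to 0.0579).

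Complex III hands electrons from ubiquinol to cytochrome c. It had the lowest median with miR-1 of the complexes, 0.14 on the log2 scale over 9 tested genes, with 7 above a ratio of 1. UQCRC1 (ENSG00000010256, chr3:48599002-48610976), a large core protein, had FPKM values of 11.95, 13.8, 13.4, and 13.6, so that the control was lowest and the mimic libraries were alike, with ratios of 1.16 (1.07 to 1.26), 1.12 (1.03 to 1.23), and 1.14 (1.04 to 1.24). CYC1, the heme-bearing cytochrome c1, had 93.2, 99.7, 89.8, and 106. UQCRFS1, the Rieske iron-sulfur protein, was lower with miR-122, at 0.864 (0.776 to 0.961). The small subunits went in different directions. UQCRQ had 113, 142, 114, and 118, and the miR-1 library was 1.2501 times the control (1.16 to 1.35). UQCR10 had 43.2, 38.7, 48.9, and 46.9, the miR-1 library being lowest, and its ratio of 0.896 (0.819 to 0.980) was the only one of the 77 with miR-1 whose interval was below 1. UQCR11 was at 0.883 with miR-1, but its 578 reads gave an interval of 0.707 to 1.11.

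Cytochrome c, encoded by CYCS (ENSG00000172115, chr7:25118656-25125260), carries electrons between complexes III and IV. Its FPKM values were 51.4, 67.1, 47.2, and 49.7. The miR-1 library stood above all others with a ratio of 1.31 (1.23 to 1.38), and the miR-122 library was below the control, at 0.919 (0.857 to 0.985).

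Complex IV, cytochrome c oxidase, had 12 of 19 genes tested, and their median log2 ratio was 0.24 in the miR-1 library, 0.08 in that of miR-122, and 0.05 in that of miR-124. COX7C had FPKM values of 157, 200, 168, and 170, and its miR-1 ratio was 1.28 (1.22 to 1.33). COX6C reached 1.29 (1.18 to 1.40) and COX8A 1.28 (1.09 to 1.49) with miR-1. NDUFA4 (ENSG00000189043, chr7:10931943-10940153), which was first assigned to complex I and is a subunit of complex IV, had 18.5, 20.9, 21.2, and 19.6. It was 1.13 times the control with miR-1 (1.04 to 1.22), 1.14 with miR-122 (1.05 to 1.249), and 1.06 with miR-124 (0.970 to 1.15). COX7B was lower with miR-124, at 0.853 (0.768 to 0.948). COX6A1 was below the control with miR-1, at 0.930 (0.724 to 1.20), and is uncertain, since 37.1% of its transcript occurs elsewhere as identical stretches of 50 bases.

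Several complex IV subunits exist as a general and a tissue form, and the general forms were detected. In reads per kb of the canonical transcript and 1000000 library reads, a scale on which genes can be compared, the mean level over the libraries was 284 for COX4I1 and 413 for COX6B1. It was 353 for COX7A2, 46.2 for COX7B, and 85.7 for COX8A. COX7A2L, a relative of COX7A2 that takes part in joining complexes III and IV, was at 40.4. Their counterparts had almost no reads. COX6A2 and COX7B2 were listed at 0 in every library, COX4I2 had 1 read and COX8C had 3 in all, and COX7A1, the form of heart and muscle, had 25. COX6B2 had 20 reads, and NDUFA4L2, a hypoxia-induced relative of NDUFA4, had 13, 23, 7, and 21. At these depths no interval of a mimic against the control excluded 1. Intervals between mimic libraries were not computed. The miR-1 ratio of COX7A1, for example, was 0.491 with an interval of 0.158 to 1.43.

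Complex V had 18 of 19 genes tested, with a median log2 ratio of 0.21 with miR-1, against -0.02 and 0.01 with the other mimics. ATP5F1B (ENSG00000110955, chr12:56638175-56645984), the catalytic beta subunit, had FPKM values of 93.2, 102, 89.2, and 88.3. With 21105 reads it was the most deeply read gene of the set, and all 3 intervals excluded 1: 1.09 (1.05 to 1.13) in the miR-1 library, 0.957 (0.918 to 0.997) in that of miR-122, and 0.947 (0.909 to 0.986) in that of miR-124. ATP5F1A, the alpha subunit, which pairs with beta in the catalytic head, had 16.8, 16.8, 16.1, and 15.9, with a miR-1 ratio of 1.00 (0.952 to 1.05). ATP5F1C, the gamma subunit, was at 0.883 (0.805 to 0.969) with miR-122. ATP5F1D (ENSG00000099624, chr19:1241746-1244825), the delta subunit, had 30.6, 38.9, 39.7, and 43.4, the control being lowest and miR-124 highest. It was the only gene at least 25% higher with each mimic, with ratios of 1.27 (1.15 to 1.40), 1.29 (1.16 to 1.44), and 1.42 (1.28 to 1.57), all taken against the same control value. Against the mean of the other 2 mimics instead, miR-1 gave this gene a log2 ratio of -0.096, and miR-122 gave -0.054.

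The c subunit, whose ring turns in the membrane as protons pass, is encoded by ATP5MC1, ATP5MC2, and ATP5MC3, which give the same mature protein. ATP5MC1 (ENSG00000159199, chr17:48892765-48895871) had the highest miR-1 ratio of the 77 genes. Its FPKM values were 49.2, 71.7, 52.1, and 51.9, so that the miR-1 library stood apart and the others were alike, and the ratio was 1.46 (1.35 to 1.57). ATP5MC2 had 3.95, 4.51, 4.44, and 4.41, with a miR-1 ratio of 1.14 (1.06 to 1.23). ATP5MC3 had 23.3, 24.1, 19.7, and 19.9, with ratios of 1.03 (0.963 to 1.11), 0.842 (0.774 to 0.916), and 0.852 (0.785 to 0.925). The miR-1 interval of ATP5MC1 therefore overlapped with that of neither other gene. On the scale per kb of transcript, the mean levels were 270 for ATP5MC1, 306 for ATP5MC2, and 70.2 for ATP5MC3. In the stalk, ATP5PO was at 1.32 (0.988 to 1.79) with miR-1 on 360 reads, and in the membrane part ATP5MG was at 1.31 (1.21 to 1.41). ATP5MF-PTCD1, a readthrough of ATP5MF into PTCD1, had a ratio of 0.784 (0.568 to 1.08) with miR-122 and 1.20 (0.910 to 1.59) with miR-124. All of its canonical exons overlap with other listed genes on the same strand, so its reads are uncertain.

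**Figure D2:**
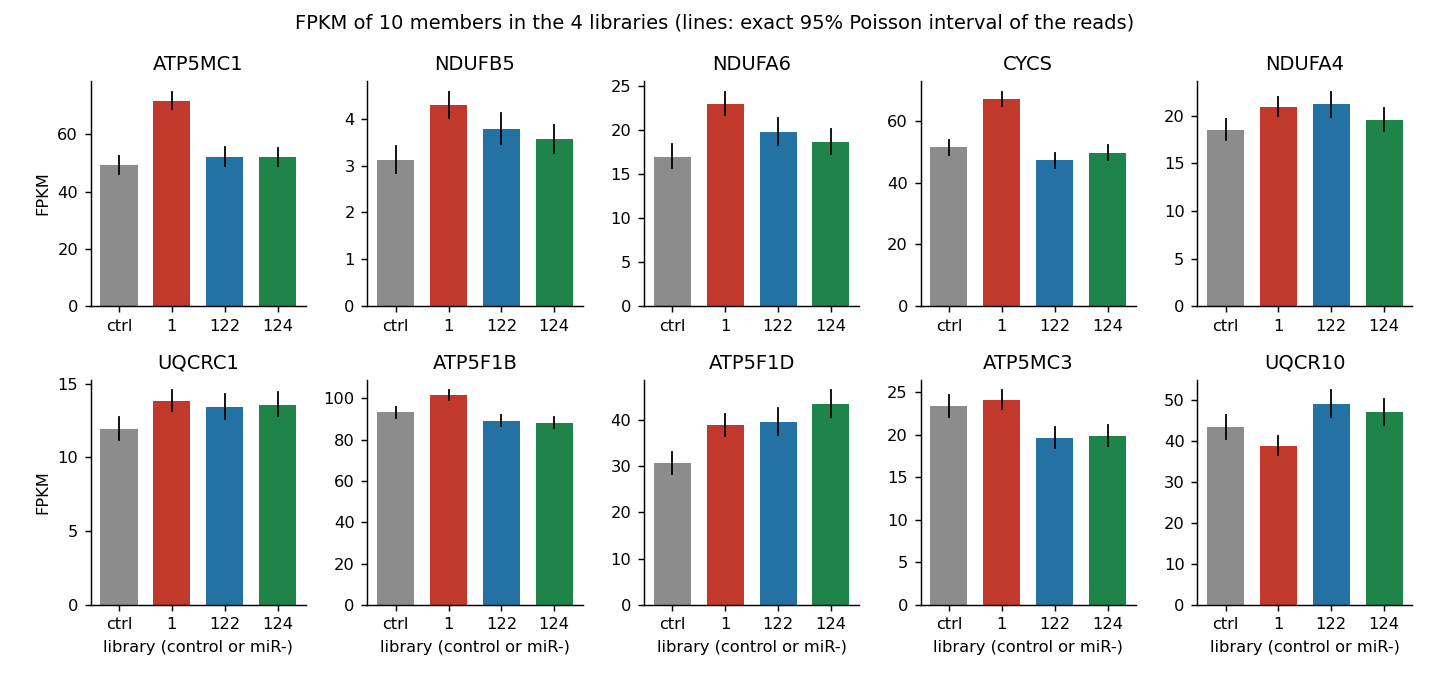
FPKM (vertical axis, from 0) of 10 genes is shown in the control, miR-1, miR-122, and miR-124 libraries, where bars are the single value of a library and lines the exact 95% Poisson interval of its reads. ATP5MC1, NDUFA6, and CYCS were highest with miR-1, the control was lowest for ATP5F1D, and UQCR10 was lowest with miR-1.

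Transcript length and base composition went along with the ratios, and their part in the results was not tested. The canonical transcripts of the 77 genes had a median length of 894 bases, compared with 3224 for all tested genes. With miR-1, the shorter genes of the transcriptome were the higher ones: the median log2 ratio was 0.13 over 1291 genes under 1 kb, 0.10 over 2189 genes of 1 to 2 kb, -0.02 over 4319 genes of 2 to 4 kb, and -0.19 over 4839 genes over 4 kb. The oxidative phosphorylation genes of these classes had medians of 0.24 (42 genes), 0.24 (16), 0.11 (10), and 0.32 (9), above those of all genes in each class. Lengths are those of the annotated canonical transcript, for example 11660 bases for NDUFS1 and 5432 for CYCS. Whether transcripts of these lengths were the ones present in the cells was not tested. Pearson's r between the miR-1 log2 ratio and log2 transcript length was -0.05 across the 77 genes and -0.39 across all 12638. Each r describes genes that share libraries. When a cubic trend with transcript GC content, transcript length, and reads was fitted to all tested genes and subtracted, the miR-1 median of the set was 0.10 on the log2 scale, 57 of 77 genes were above 0, and 12 were at least 25% higher, while 9.58% of all tested genes were. This adjustment was chosen after seeing the data. With the trend for 3′ UTR composition and length, gene span, and reads, the median was 0.16.

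**Figure D3:**
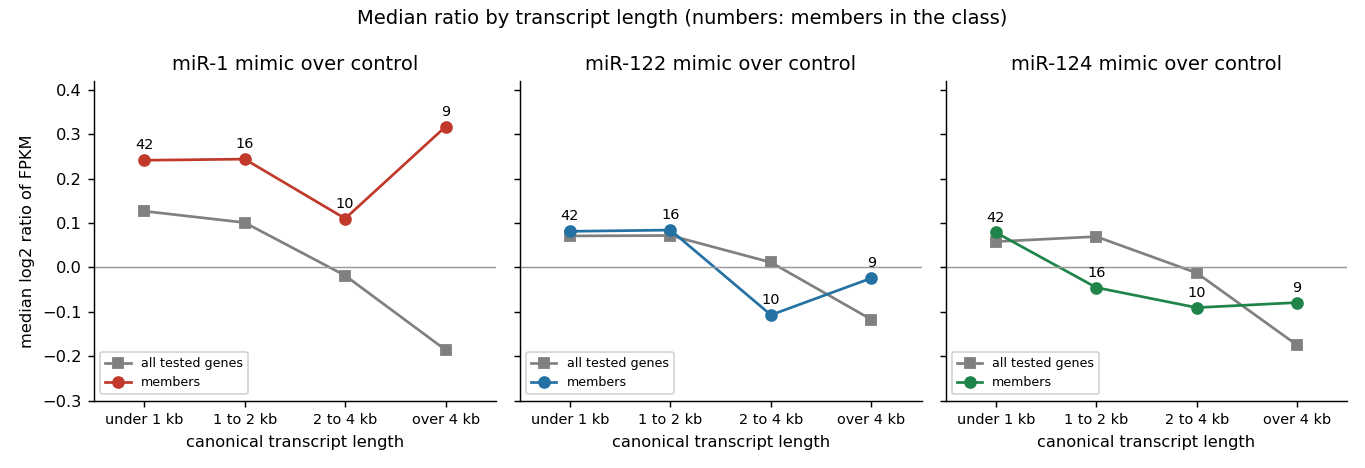
The median log2 ratio of FPKM to the control (vertical axis) is given by class of canonical transcript length for all tested genes (grey squares) and the oxidative phosphorylation genes (colored circles, with their number), with a panel for each mimic. In the miR-1 panel the colored line lies above the grey line in all 4 classes, and in the other panels the lines cross.

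With miR-124, the ratio followed GC content. Across the 77 genes, Pearson's r between log2 ratio and GC content of the canonical transcript was 0.64, and it was 0.64 across all 12638 genes as well. All 15 genes of the set with more than 55% GC were above 1 with miR-124, as were 82.5% of the 4001 such genes of the transcriptome. The median log2 ratio was 0.19 in the set and 0.20 over the 4001 genes. Of the 27 with less than 45%, 9 were above 1, against 14.4% of the 4652 such genes of the transcriptome. The median was -0.05 in the set and -0.23 over the 4652 genes. ATP5F1D (69.5% GC), NDUFS8 (63.5%), and NDUFA11 (62.3%) were the highest with miR-124, whereas ATP5MC3 (38.5%), COX7B (41.4%), SDHD (39.8%), and NDUFA5 (34.6%) were the lowest. Other genes went against the trend, such as NDUFC2 (44.05% GC), which had the next highest ratio, and COX7C (40.7%) and NDUFA4 (39.4%), which were above 1. The intervals of NDUFC2 (0.929 to 1.77) and NDUFA4 (0.970 to 1.15) included 1, however. With the trend for transcript GC, length, and reads subtracted, the miR-124 log2 ratio of ATP5F1D was 0.03 in place of 0.50. That of NDUFS8 did not change sign with this trend. It was -0.15 in place of 0.36 only with the other trend, for 3′ UTR composition and length, gene span, and reads. For miR-1, r with GC was -0.12 across the set and 0.22 across all genes, and for miR-122 it was 0.28 and 0.34.

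**Figure D4:**
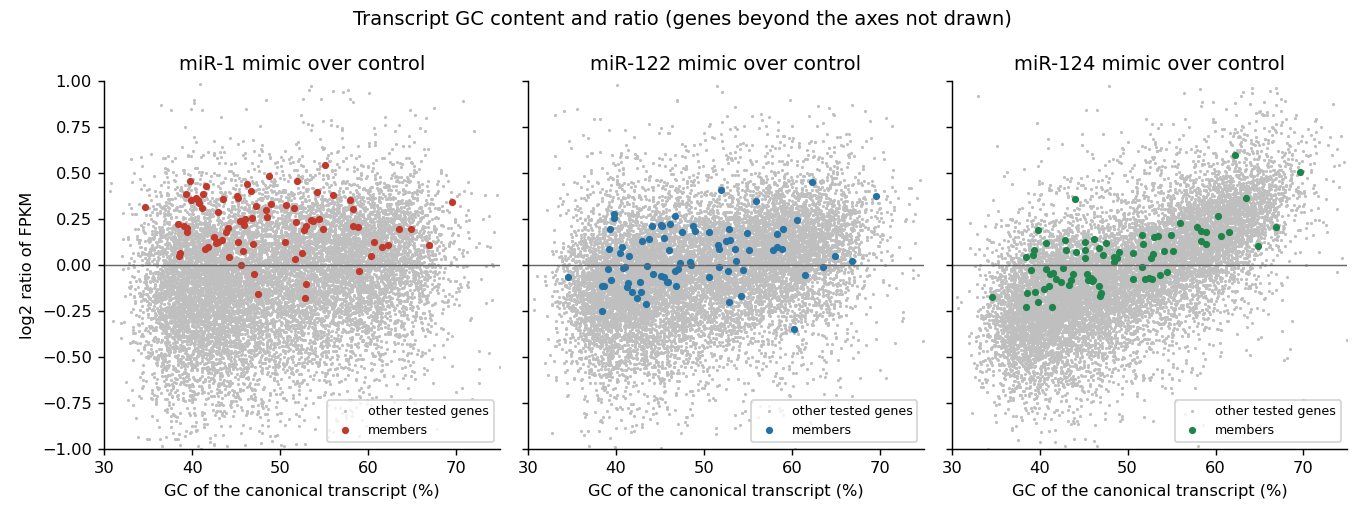
The log2 ratio of FPKM to the control (vertical axis) is plotted against the GC percentage of the canonical transcript (horizontal axis) for other tested genes (grey) and the oxidative phosphorylation genes (colored), with a panel for each mimic. The miR-124 panel shows both groups rising with GC content (r = 0.64 for each), and in the miR-1 panel most colored points lie above 0 over the whole GC range.

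Seed sites were rare in the set. A match of at least 7 bases in the longest annotated 3′ UTR was found for miR-1 in 8 of the 77 genes (10.4%) and in 25% of the 11205 tested genes with a 3′ UTR. For miR-122 it was found in 10 genes (13%) and 26.4%. Their 3′ UTRs were also short, with a median of 444 bases against 1613. No 8mer of miR-1 occurred. The genes with a match to all of bases 2 to 8 are shown with their sites, in capitals, since these hold the longest matches. A shorter match, to bases 2 to 7 followed by A, was the longest in 5 genes for miR-1 and in 7 for miR-122.
NDUFB5, miR-1 (chr3:179626024-179626045, plus strand): ggttgtactactgtACATTCCt
NDUFA9, miR-1 (chr12:4691499-4691520, plus strand): tgctcaggaggaagACATTCCc
NDUFA9, miR-1 (chr12:4694250-4694271, plus strand): tggattctccttggACATTCCt
NDUFC2, miR-122 (chr11:78068917-78068938, minus strand): ctgcagcctgggtgACACTCCA
NDUFA10, miR-122 (chr2:239959885-239959906, minus strand): tgcgaagaagatgcACACTCCt
NDUFB4, miR-122 (chr3:120602008-120602029, plus strand): tactgtttcttcgcACACTCCc
UQCRB also had a match to bases 2 to 8 of miR-1, and NDUFV2, which was not tested, had such a match to miR-122. The sites of NDUFB4 and NDUFV2 lie outside the canonical 3′ UTR.

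With miR-1, all 8 genes with a match of at least 7 bases had a ratio above 1, and with miR-122, 4 of 10 had. With miR-1, NDUFB5 was at 1.37 (1.23 to 1.54), NDUFA9 at 1.28 (0.983 to 1.68), and UQCRB at 1.16 (1.08 to 1.24). With miR-122, NDUFC2 was at 1.16 (0.825 to 1.62), NDUFA10 at 0.984 (0.881 to 1.10), and NDUFB4 at 1.10 (1.00 to 1.22). CYCS, which has a match to bases 2 to 7 of miR-122 followed by A, was at 0.919 (0.857 to 0.985), the only gene of the 10 with an interval below 1, and NDUFS1, with the same kind of match, was lowest at 0.901 (0.807 to 1.01). Over the 8 genes with a miR-1 match of at least 7 bases, the median log2 ratio was 0.22, and over the 65 without any match it was 0.22 as well. In the transcriptome the medians were -0.18 and 0.00. For miR-122, they were -0.01 for the 10 genes with and 0.07 for the 61 without a match, compared with -0.07 and 0.00 in the transcriptome. Transcriptome genes with a match also had longer 3′ UTRs, with a median of 3145 bases against 1030 without for miR-1. For miR-122 these lengths were 3108 and 1068. The part of 3′ UTR length in these ratios was not tested. A match is a description of the sequence and does not show that the site was used.

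The promoters of the set were searched for 3 motifs as a planned description. RefSeq promoter windows (GRCh38.p14), from 250 bases before to 50 after a start, were matched by symbol for 71 of the 91 genes, with 84 windows. The letters searched on both strands were GCATGCG, the core bound by NRF1, CCGGAAG, bound by ETS factors such as GABP, and AAGATGGC, bound by YY1. These factors are known as regulators of nuclear genes for mitochondrial proteins. GCATGCG occurred in 16 of the 84 windows (19.0%) and in 3.91% of all 35116 windows. CCGGAAG was found in 22 (26.2%) and in 10.3%, and AAGATGGC in 13 (15.5%) and 2.89%. Among windows of protein-coding genes, the shares were 4.63%, 12.8%, and 3.53%, in the same order. The shares among tested genes were not counted. At least 1 of them was present in 40 windows (47.6%), against 15.7% of all windows and 19.1% of the 22199 windows of protein-coding genes. Examples are given for each motif, with the letters in capitals, on the strand of the gene.
CYCS, NRF1 (chr7:25125413-25125439, minus strand): atgctcgccaGCATGCGcgcgcaggtc
NDUFS6, NRF1 (chr5:1801352-1801379, plus strand): agaagccgtgCGCATGCGttagcgctaa
NDUFA8, NRF1 (chr9:122159765-122159792, minus strand): ttgccggatgCGCATGCGcaggcgccgt
COX4I1, ETS (chr16:85799687-85799713, plus strand): gccttgctctCTTCCGGtcgcgggaca
COX6B1, ETS (chr19:35648301-35648327, plus strand): cctctctcagCTTCCGGctggtagtag
UQCRC1, YY1 (chr3:48609606-48609633, minus strand): ctgcagctggAAGATGGCggcgtccgtg
ATP5PO, YY1 (chr21:33915755-33915776, minus strand): cgcccgggagAAGATGGCtgcc
In the 8-letter runs of NDUFS6 and NDUFA8, both strands of the NRF1 core overlap, and CTTCCGG is the reverse complement of CCGGAAG. Among the tested genes with a window, the 35 with any of the motifs and the 27 with none had miR-1 median log2 ratios of 0.24 and 0.22, miR-122 medians of 0.02 and 0.08, and miR-124 medians of 0.05 and 0.04.

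Levels between genes were compared per kb of the canonical transcript, because FPKM values here were divided by the distance from start to end of a gene, introns included. NDUFS4, for instance, had the lowest mean FPKM of the tested genes (0.223) but a level of 40.9 per kb of transcript. NDUFA12, with a mean FPKM of 0.800, was at 152. On the scale per kb of transcript, COX7C was highest with a mean of 844, followed by NDUFS6 with 764, UQCRH with 701, NDUFS5 with 519, and ATP5F1B with 418. UQCRH is uncertain in this order because 33.4% of its transcript recurs elsewhere as identical 50-base stretches, among them in UQCRHL. The median over the 77 genes was 118, compared with 11.8 over all tested genes. Annotated transcripts with very long 3′ UTRs, such as those of NDUFS1 (11660 bases), UQCRB (8459), and NDUFA9 (8356), lower this level.

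Of the 14 genes that were not tested, 6 were the tissue forms of complex IV subunits named above, and NDUFA4L2 had 64 reads. ATP5MGL had a single read, UQCRHL had 21, 32, 19, and 24 reads, and the readthrough NDUFC2-KCTD14 was listed at 0 in every library. The others are subunits every such complex contains. NDUFV2, a core subunit of complex I, had 9, 8, 9, and 9 reads, NDUFB8 had 9, 15, 9, and 8, NDUFA7 had 3, 7, 5, and 6, and NDUFA13 had 27, 24, 26, and 31. In each, most bases of the canonical exons lie within exons of another listed gene on the same strand, 90.0% for NDUFV2, 72.0% for NDUFB8, 77.9% for NDUFA7, and 83.9% for NDUFA13. The overlapping genes took up few reads themselves: those beside NDUFV2 and NDUFB8 were listed at 0, and that beside NDUFA13 had FPKM values from 0.0989 to 0.214.

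This went with level across the set. The 8 genes with at least 60% of such overlap had a median of 4.07 per kb of transcript and a maximum of 19.8 (NDUFA11). The 8 genes with 10% to 60% had a median of 19.2, and the 75 genes with less had a median of 124.2. Values of NDUFV2, NDUFB8, NDUFA7, NDUFA13, NDUFA11, ATP5PO, and ATP5MF-PTCD1 are therefore uncertain, and a low value of these genes cannot be read as a low level of the mRNA. Smaller overlaps, on either strand, are found in NDUFA3, NDUFA9, NDUFB2, NDUFC2, COX8A, SDHD, and UQCR11, among others. How the counting program treated reads that fall in 2 genes, and whether it used the strand, is not given in the sources used here. Without the 19 tested genes that share reads in this way or through a near-identical copy, the miR-1 median of the remaining 58 was 0.23 on the log2 scale, and 54 were above a ratio of 1.

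**Figure D5:**
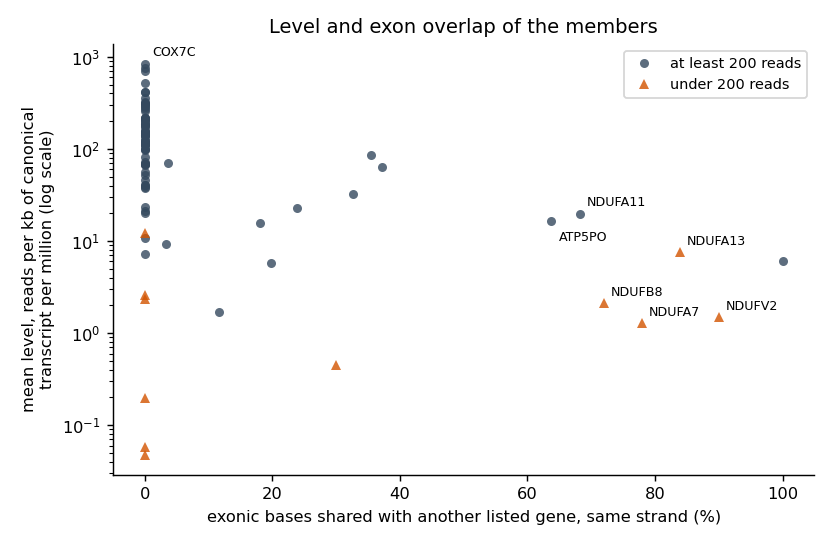
The mean level in reads per kb of canonical transcript and 1000000 library reads (vertical axis, log scale) is plotted against the percentage of canonical exonic bases that lie in exons of another listed gene on the same strand (horizontal axis), with circles for genes with at least 200 reads and triangles for the others. The genes listed at 0 in every library are not drawn. All genes above 100 on the vertical axis have less than 10% overlap, and the genes from 60% on lie at or below 19.8.

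The genes that work with these subunits were described from lists of the same pathways. The subunits encoded by mitochondrial DNA, of which 12 of 13 were tested, had a median log2 ratio of -0.05 with miR-1, with 5 above a ratio of 1. Their medians were 0.08 with miR-122 and -0.05 with miR-124, and their reads were 3.49%, 3.40%, 3.67%, and 3.39% of the libraries. With miR-1, the mitochondrial share was thus slightly lower, and the nuclear share higher, than in the control. The lowest of them with each mimic was MT-ND4L, at 0.789, 0.787, and 0.718. MT-ATP8 was not tested and had 0 to 6 reads. It overlaps with MT-ATP6.

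The 41 tested of 47 assembly factors, which build the complexes without being part of them, had a median of 0.11 with miR-1, against -0.02 and -0.07 with the others. NDUFAF6, a complex I factor, was highest in all 3, at 1.46 (1.12 to 1.92), 1.247 (0.917 to 1.70), and 1.21 (0.894 to 1.64). COX17, a copper chaperone of complex IV, was at 1.39 (1.21 to 1.59) with miR-1. The 14 enzymes of the tricarboxylic acid cycle had medians of 0.13, 0.06, and 0.02. The 72 tested of 78 mitochondrial ribosomal protein genes, which serve to translate the mitochondrial subunits, had medians of 0.21, 0.07, and 0.04. The values of the mitochondrial ribosomal proteins with miR-1 were hence close to those of the oxidative phosphorylation genes. Genes outside mitochondria were similar: the 78 tested of 84 cytosolic ribosomal protein genes had a miR-1 median of 0.19, all of them above a ratio of 1, with 0.03 for both other mimics. The 17 glycolytic genes had 0.17, 0.04, and 0.12.

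Regulators of mitochondrial biogenesis, 12 of 13 tested, had a median of 0.01 with miR-1, and -0.06 with both miR-122 and miR-124. PPARGC1A, the coactivator PGC-1alpha, had FPKM values of 0.0942, 0.0319, 0.0752, and 0.0529 on 93, 45, 66, and 51 reads. It was lowest with miR-1, with a ratio of 0.339 (0.232 to 0.489), and it was 0.562 (0.391 to 0.799) with miR-124. PPARGC1B, its relative, was at 0.776 (0.633 to 0.951) with miR-1 and 0.614 (0.477 to 0.785) with miR-122. With miR-1, 6 of the 12 were above a ratio of 1. TWNK was highest at 1.32 (1.13 to 1.53), followed by TFB1M at 1.27 (0.946 to 1.73). YY1 was at 0.878 (0.811 to 0.951) with miR-1, NRF1 at 1.13 (0.899 to 1.43), and GABPA at 0.996 (0.898 to 1.11). The mitochondrial RNA polymerase POLRMT was at 1.22 (1.12 to 1.34) with miR-1 and 1.31 (1.18 to 1.44) with miR-124, and TFAM, which packages mitochondrial DNA, was at 0.780 (0.702 to 0.865) with miR-124.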

How the data were processed

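RNA-seq libraries of 293T cells, 1 for each of 4 conditions, were deposited as FPKM per Ensembl gene. Per the labels, the authors used CASAVA 1.8 and HISAT2 2.0.0 with the GRCh38 build. The counting program and annotation are not given in the sources used here.

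Genes were matched to GENCODE release 44. Reads were recovered as whole multiples of the value of 1 read, with a length found for 99.6% of the 32358 genes above 0. For 31 members it was the annotated distance from start to end, and for 57 the smallest whole number that fitted (within 10% of the distance for 49), so that reads of these could be off by a whole factor. Ratios do not depend on the length. Depth set the precision: 1 read of a gene of 1 kb was worth 0.106 to 0.170 FPKM. Intervals have a confidence of 95%. Exon overlap was counted against genes listed in the files, and 10% of overlap or 20% of shared 50-base stretches set a gene as sharing reads. 3′ UTRs and sites came from GENCODE and the GRCh38 genome.

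With 1 library per condition, medians and counts of genes at least 25% higher or 20% lower are given beside those of all tested genes, with no p-value. The members and gene lists were chosen with earlier results of these data known. Named genes were, by rule, the markers NDUFA4, UQCRC1, and ATP5F1B, the 5 highest and 5 lowest tested members per mimic, the paralog sets, the SDH genes, CYC1, CYCS, the 5 highest and 5 lowest by mean FPKM, untested members, members with a match to bases 2 to 8 of a seed, and up to 3 highest and lowest genes of the other lists. Other members were named after their values were seen, and 1 gene is not reported here. Alternatives were another reference, 3 scalings, pseudocounts of 1 and 0.1, 2 filters, a 3′ UTR trend, leaving out genes that share reads, and, chosen after seeing the data, a trend with transcript GC content, length, and reads. The steps were tested on simulated data. Python 3.11.15, numpy 2.4.6, pandas 2.3.3, scipy 1.17.1, pysam 0.24.0, and matplotlib 3.10.9 were used.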

Additional observations from a re-analysis of the deposited data

How the results depend on the processing

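The median log2 ratio of the set with miR-1 was 0.22 and ranged from 0.10 (transcript trend subtracted) to 0.27 (centred on all genes) over the alternatives, staying above 0. The medians with miR-122 and miR-124 were 0.05 and 0.05, and they turned to -0.10 and -0.11 when each mimic was set against the average of the remaining 2. For both, that average includes the miR-1 library, where the median of the set against the control was 0.22. With miR-122, the median was -0.01 after the 3′ UTR trend. Genes at least 25% higher numbered 23 for miR-1, and 4 for each other mimic. In the order of miR-1, liver, and neural miRNA, these counts were 12, 0, and 1 with the average of mimics as reference, against 5.38%, 7.05%, and 8.13% of all tested genes. For miR-1 the share of all tested genes was 7.45%, and 5.38% with that reference, and the count was 12 with a pseudocount of 1 (3.09% of all genes), 13 after the 3′ UTR trend (9.25%), and 12 after the transcript trend (9.58%). For miR-122 it was 2 without genes that share reads (7.91% of all genes) and 2 after the transcript trend (7.68%). For miR-124 it was 2 with a pseudocount of 1 (4.78% of all genes), 2 with at least 1000 reads (8.73%), and 2 without genes that share reads (10.3%). Counts of genes at least 20% lower were 0, 1, and 0, against 18.4%, 12.3%, and 16.3% of all tested genes. They became 1, 2, and 3 with the other reference, against 12.1%, 4.72%, and 6.84%. With the threshold of the study alone, which kept 85 genes of the set, they were 4, 4, and 2, against 29.2%, 21.4%, and 23.8%. For miR-122 this count was 0 with pseudocounts of 1 (1.79% of all genes) and 0.1 (7.31%), with at least 1000 reads (7.67%), and without genes that share reads (12.3%). Of the named genes, ATP5F1D went to -0.096 with miR-1 and -0.054 with miR-122 with the other reference, and NDUFS8 with miR-124 to -0.15 after the 3′ UTR trend. Filters remove genes by construction, and the cause of the other differences was not tested. No replicate could be left out, and no paired analysis was possible because there was 1 library per condition. Depth limits the genes with few reads most.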
